A study of Mus musculus with 12 samples.

Results

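The levels of 6 homeobox genes, *Meis1*, *Hoxa9*, *Hoxa10*, *Pbx2*, *Pbx3* and *Pknox1*, were followed across 4 sorted sub-populations of the mouse leukemia line ML23. They were taken by symbol from a table of 20202 genes. Values were found for 5 of the 6, and *Hoxa10* was not among the values used here. ML23 is an AML-like line made by lentiviral overexpression of *Meis1*, *HoxA9* and *HoxB5* in cells that carry an rtTA transgene, and it is kept by passage through C57BL/6 mice. Leukemic cells were sorted by their ZsGreen reporter and then by surface markers, and mRNA was sequenced in 12 libraries of 100 cells, 3 per sub-population. P9 is CD9+ cKit+ Mac1+ CD48-, P10 is CD9- cKit+ Mac1+ CD48+, P11 is CD9- cKit+ Mac1- CD48+ and P12 is CD9- cKit- Mac1- CD48+. By the study, P11 is the sub-population that passes the disease to new mice. There is no library of cells without the introduced genes, and no library of normal blood cells. Reads of an introduced *Meis1* or *Hoxa9* copy and of the mouse's own gene cannot be told apart here, and *Hoxb5* was not among the values used here.

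HOX proteins are transcription factors that set position in the embryo and are used again in blood stem and progenitor cells. They bind DNA weakly alone, and do so together with PBX proteins and with MEIS or PREP proteins (PREP1 is the product of *Pknox1*). PBX, MEIS and PREP belong to the TALE group, whose homeodomain carries an insert called the three-amino-acid-loop extension. *Hoxa9* and *Meis1* are active in early myeloid cells and fall as these mature, and joint enforced expression of both transforms mouse marrow cells. In mouse cells PREP1 and MEIS1 compete for PBX proteins.

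The members shown here fall into 3 kinds by the residue in the DNA recognition helix of the homeodomain that stands between an invariant phenylalanine and asparagine. The coding sequences of that stretch are shown because they sort these genes by kind without use of their levels. They are 30 bases long, 5′ to 3′ on the coding strand, from GENCODE M21 transcripts of the mm10 build. Capitals mark the codon between the phenylalanine and the asparagine codon. It encodes isoleucine in *Meis1* and *Pknox1*, glycine in *Pbx2* and *Pbx3*, and glutamine in *Hoxa10*.
Meis1: gtgaacaattggtttATTaatgcccggaga
Pknox1: gtcaacaactggttcATCaacgcgagaaga
Pbx2: gtttccaactggttcGGTaacaagcgaatt
Pbx3: gtatccaactggtttGGCaacaaacgaatc
Hoxa10: gtgaaaatctggtttCAGaatcgcaggatg

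The values are CPM, counts of alignments scaled to the total of their library. Libraries held 13441944 to 21307424 alignments, so that 1 CPM stands for 13.4 to 21.3 alignments. Transcripts of the gate proteins followed the labels in part. *Cd9* was 259 ± 39.2 CPM (SD, n = 3) in P9 and at most 3.77 CPM on average in the others, and *Kit* was 5.19 ± 0.664 CPM in the cKit- P12 but 12.7 ± 7.64 CPM in the cKit+ P10. The summed level of 7 neutrophil markers was 63644 to 72774 CPM in P9, 929 to 6661 CPM in P10 and 155 to 518 CPM in P11. In P12 it was 242 to 300.1 CPM, and none of the 7 was at 0 in any sub-population. P10 replicate 3 stood apart from the other P10 libraries, with *S100a8* at 1767 against 109 and 187 CPM and *Cd9* at 8.45 against 1.26 and 1.60 CPM. Of the 7 markers *Mmp8* went the other way, at 306 against 504 and 538 CPM. The summed level of 7 monocyte and macrophage markers was 955 to 1000 CPM in P9, 3198 to 3562 CPM in P10, 1809 to 2169 CPM in P11 and 1962 to 3552 CPM in P12. In P11 against P10 the median log2 difference was -2.86 for the neutrophil markers and -1.64 for the monocyte markers tested, against 0.25 for all genes. In P10 against P9 these medians were -5.55 and 3.35, against 0.61 for all genes. Member differences between P9 and the others therefore run alongside the neutrophil markers, and those of P10 from P9 or P11 alongside both lists. The part of either was not tested. P12 replicate 3 stood apart from the other P12 libraries in *Itgam*, the gene of Mac1, at 538 CPM against 139 and 130 CPM. Its monocyte sum of 3552 CPM lay inside the range of P10, but *Ly6c2* made up 2327 CPM of it, above every P10 library (1590 to 1995 CPM). Each other marker of that list lay below every P10 library, such as *Csf1r* at 680 CPM against 825 to 870 CPM. In libraries of pooled cells, fewer cells with a transcript and less of it per cell cannot be told apart. By the study, the cells of each sub-population were sorted from the same diseased mice, but the labels do not tie replicate numbers to mice, so p-values measure the spread between these libraries.

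*Meis1*, the TALE factor introduced with *HoxA9* and *HoxB5* to make this leukemia, was lowest in P9 and highest in P11 and P12. Its gene lies on mm10 chromosome 11, from 18879817 to 19018985. The level was 247, 242 and 102 CPM in replicates 1 to 3 of P9, and 481, 554 and 404 CPM in P10. It was 756, 819 and 820 CPM in P11, and 764, 830 and 591 CPM in P12. P9 lay below P10, and P10 below both P11 and P12, with no library crossing over, while P11 and P12 overlapped. The share of all genes separated in this way was not counted, so such gaps are a description here and below. The means were 197 ± 82.6, 480 ± 74.99, 799 ± 36.6 and 728 ± 124 CPM (SD, n = 3) from P9 to P12.

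Against P9, *Meis1* was higher by 2.12 ± 0.28 on the log2 scale (SE) in P11 (limma adjusted p = 1.2e-05), by 1.97 in P12 (limma adjusted p = 2.7e-05) and by 1.38 in P10 (limma adjusted p = 0.00072). Differences are those of log2(CPM + 0.5), adjusted over 13450 genes tested, and a gene was called at an adjusted p under 0.1 and more than 2-fold. P11 exceeded P10 by 0.75, which is under 2-fold (limma adjusted p = 0.045). Between P11 and P12 the difference was 0.15 with a 95% interval from -0.45 to 0.75 (limma adjusted p = 0.86). The P10 call rested on P9 replicate 3, the lowest library: without it the difference from P9 was 0.96, under 2-fold. *Meis1* held whole numbers of alignments in 5 of 12 libraries (within 0.1), and 16.6% of its 61-base exon windows also occur in other genes, among them *Gm37818*, a gene model nested in it.

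*Pknox1*, which encodes the MEIS1 competitor PREP1, had the smallest range of group means of the 5 genes on the log2 scale. It lies on chromosome 17, from 31564734 to 31607693. Its level was 55.6, 60.4 and 58.3 CPM in P9, 51.4, 49.5 and 51.9 CPM in P10, 83.1, 69.0 and 73.6 CPM in P11, and 72.01, 60.6 and 58.4 CPM in P12. P10 lay below every other sub-population and P11 above P9 and P10, while P12 overlapped both P9 and P11. The F test of any difference among the 4 passed (limma adjusted p = 0.0049), but no pairwise difference reached 2-fold. The *Pknox1* difference was largest between P11 and P10, at 0.55 ± 0.12 on the log2 scale (SE; limma adjusted p = 0.0024). Between P11 and P9 it was 0.37 (limma adjusted p = 0.012), and this turned to -0.14 (limma adjusted p = 0.32) on values rescaled by the median ratio of a library to the others.

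*Hoxa9*, the HOX member, was higher in P11 than in P9 and P10, at a low level throughout. Its gene lies on chromosome 6, from 52223100 to 52231089, and holds the microRNA gene *Mir196b*. *Hoxa10* lies 107 bases from *Hoxa9*. The level was 2.56, 2.48 and 0.561 CPM in P9, and 1.81, 1.69 and 1.29 CPM in P10. It was 10.9, 7.77 and 5.37 CPM in P11, and 11.8, 8.72 and 1.79 CPM in P12. Every P11 library lay above every P9 and P10 library. P12 replicate 3, the P12 library with the most *Itgam* and the highest monocyte sum, fell inside the ranges of both P9 and P10. The values rest on 10 to 198 alignments per library, and replicate 3 was lowest in 4 of 4 sub-populations.

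P11 exceeded P10 in *Hoxa9* by 1.98 ± 0.56 on the log2 scale (SE; limma adjusted p = 0.013) and P9 by 1.95 (limma adjusted p = 0.0068). P12 exceeded P9 by 1.58 (limma adjusted p = 0.022) and P10 by 1.61 (limma adjusted p = 0.051). P9 and P10 differed by -0.03 (limma adjusted p = 0.96), and P11 and P12 by 0.37 with a 95% interval from -0.86 to 1.59 (limma adjusted p = 0.82). *Hoxa9* was thus called between P11 and P10. *Meis1* stayed under 2-fold there, though all its P10 libraries lay below those of P11 (limma adjusted p = 0.045). *Meis1* was called between P10 and P9, but not without P9 replicate 3, and *Hoxa9* did not pass there. A test of the difference between the 2 genes was not made. The P12 calls of *Hoxa9* were not stable. That against P9 was lost without P9 replicate 3 (1.08, limma adjusted p = 0.10) or P12 replicate 1 (1.11, limma adjusted p = 0.11), and that against P10 without P10 replicate 2, P10 replicate 3, P12 replicate 1 or P12 replicate 2 (1.14 to 1.65, limma adjusted p from 0.11 to 0.19). Without P12 replicate 3 the difference was instead 2.35 from P10 (limma adjusted p = 0.0023) and 2.32 from P9.

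**Figure D1:**
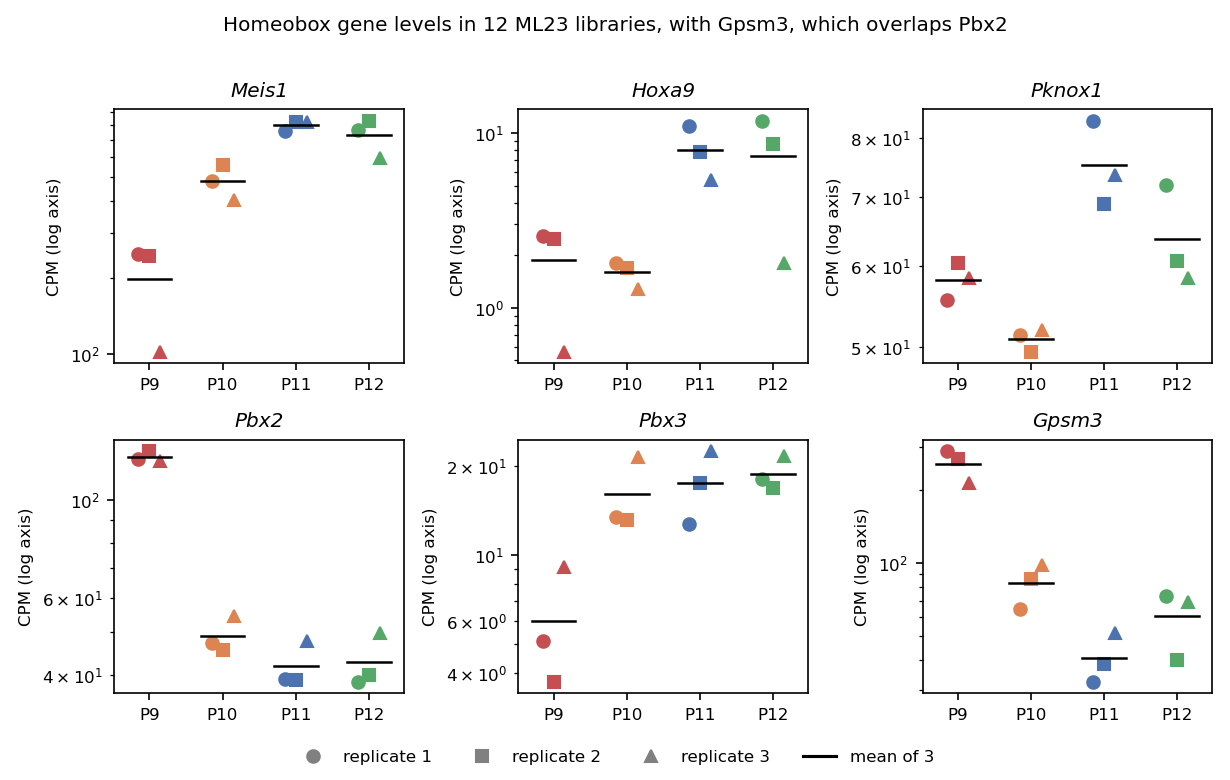
CPM on a log axis for the 5 members with a value and for *Gpsm3*, which overlaps *Pbx2*, in 3 libraries each of P9 to P12; marker shapes are replicates 1 to 3, black bars are means of 3, and axis ranges differ between panels. *Meis1* and *Pbx3* are lowest in P9, *Pbx2* and *Gpsm3* are highest there, and P12 replicate 3 falls below the other P12 libraries for *Hoxa9*, at 1.79 CPM.

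*Pbx2*, 1 of the PBX cofactors of HOX proteins, ran the other way and was highest in P9. It lies on chromosome 17, from 34591266 to 34597400. The level was 124, 130 and 123 CPM in P9 and 47.4, 45.5 and 54.5 CPM in P10. It was 39.1, 38.8 and 47.8 CPM in P11, and 38.5, 39.9 and 49.8 CPM in P12. All P9 libraries stood above the other 9, which overlapped. Against P9 the *Pbx2* difference was -1.58 ± 0.13 on the log2 scale (SE) in P11 (limma adjusted p = 2.5e-07), -1.55 in P12 (limma adjusted p = 3.5e-07) and -1.35 in P10 (limma adjusted p = 1.9e-06).

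The exons of *Pbx2* share 227 bases (6.24% of their length) with *Gpsm3*, a gene of G-protein signalling on the same strand. *Gpsm3* was 257 ± 39.1 CPM (SD, n = 3) in P9, 83.0 ± 17.1 CPM in P10, 40.9 ± 9.66 CPM in P11 and 60.8 ± 18.1 CPM in P12, so that it too was highest in P9. *Pbx2* held whole numbers of alignments in 2 of 12 libraries (within 0.1), against 12 of 12 for *Pbx3*, *Pknox1* and *Hoxa9*. The part of *Gpsm3* reads in the *Pbx2* values was not tested.

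*Pbx3*, the PBX gene known for its part in HOXA9-driven leukemia, was lowest in P9 and overlapped between the other 3 sub-populations. It lies on chromosome 2, from 34171457 to 34373142. The level was 5.13, 3.74 and 9.15 CPM in P9, 13.5, 13.1 and 21.4 CPM in P10, 12.7, 17.5 and 22.4 CPM in P11, and 18.1, 16.8 and 21.6 CPM in P12. P9 lay below all others, which overlapped, and replicate 3 was highest in 4 of 4 sub-populations. Against P9 the difference was 1.52 ± 0.30 on the log2 scale (SE) in P11 (limma adjusted p = 0.00049), 1.65 in P12 (limma adjusted p = 0.00028) and 1.39 in P10 (limma adjusted p = 0.0013). P11 and P10 differed by 0.13 (limma adjusted p = 0.77), and P11 and P12 by -0.13 with a 95% interval from -0.79 to 0.53 (limma adjusted p = 0.89). *Pbx3* shares no 61-base window with another gene, and the antisense gene *C79798* within it was at most 0.169 CPM.

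All 5 members passed the filter of 1 CPM in at least 3 libraries. In P11 against P9, 3 members were called higher (*Meis1*, *Hoxa9*, *Pbx3*) and 1 lower (*Pbx2*), where 46.8% of all genes tested were called higher and 11.2% lower. P12 against P9 called the same 4 genes in the same directions, against 43.2% higher and 11.1% lower among all genes. P10 against P9 called *Meis1* and *Pbx3* higher and *Pbx2* lower, with 34.1% of all genes higher and 8.33% lower. These 3 comparisons share the P9 libraries. The median gene was itself higher than in P9, by 0.90 in P11, 0.80 in P12 and 0.61 in P10 on the log2 scale, and a higher call for a member is to be read against that. After rescaling by the median ratio these medians were 0.46, 0.40 and 0.28, and the share of calls that were higher fell from 80.7% to 67.2% in P11, from 79.6% to 66.7% in P12 and from 80.3% to 67.9% in P10. *Meis1*, *Hoxa9* and *Pbx3* were then still higher in P11 than in P9, by 1.61, 1.53 and 1.04, and the *Pbx2* difference was -2.08. *Pbx2* thus moved against the median gene on both scales.

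Among the sub-populations without CD9, *Hoxa9* was the single member called in P11 against P10, where 12.8% of all genes were higher and 7.52% lower, and in P12 against P10, where 6.25% were higher and 5.83% lower. The median gene was 0.25 higher in P11 than in P10 and 0.14 higher in P12 than in P10 on the log2 scale. Rescaling moved the share of calls that were higher from 63.1% to 52.3% in P11 against P10 and from 51.7% to 42.4% in P12 against P10. No member was called in P11 against P12, the pair separated by cKit, and none had an unadjusted p under 0.05. There 0.0223% of all genes (3 genes) were higher and 0% lower in limma, while 1860 genes had an unadjusted p under 0.05. With replicate number as a block in the fit, 119 genes were called there, and still no member. Against the mean of the other 3, P11 had higher *Hoxa9* (1.43, limma adjusted p = 0.017) and *Meis1* (1.00, just past 2-fold, limma adjusted p = 0.0020), with 19.9% of all genes higher and 5.2% lower; rescaling moved the share of higher calls from 79.3% to 63.8%. The *Meis1* call there ended after rescaling (0.77) and without P9 replicate 3 (0.86), P10 replicate 3 (0.97), P11 replicate 2 (0.99), P11 replicate 3 (0.99) or P12 replicate 3 (0.96). The F test passed for all 5 members, and for 83.9% of all genes.

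**Figure D2:**
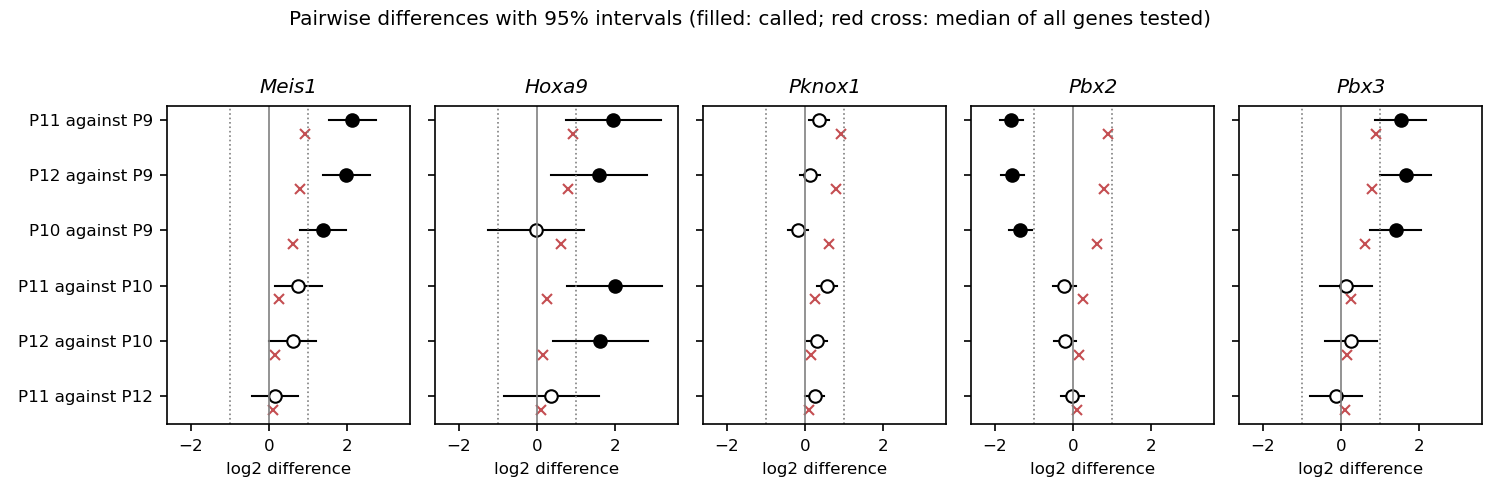
Log2 differences of the 5 members in the 6 pairwise comparisons (points, filled where called) with 95% intervals (lines), the median of all genes tested (red crosses) and 2-fold in either direction (dotted). *Pbx2* lies left of 0 in each comparison with P9, at -1.35 to -1.58, while the median gene lies right of it, and in P11 against P12 every interval spans 0.

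Proportions between members within a library do not depend on how libraries are scaled. They were chosen after the values were seen and are given without a test. Log2 of the CPM ratio of *Meis1* to *Pknox1* was 1.66 ± 0.74 (SD, n = 3) in P9 and 3.22 ± 0.26, 3.41 ± 0.20 and 3.51 ± 0.23 in P10, P11 and P12. The P9 libraries, at 0.81 to 2.15, stood below the other 9, at 2.96 to 3.77. Log2 of the ratio of *Pbx2* to *Pbx3* was 4.49 ± 0.69 in P9 and 1.65 ± 0.26, 1.29 ± 0.29 and 1.18 ± 0.08 in P10, P11 and P12, so that P9 again stood apart. Both ratios are over whole transcripts without a length correction, so they are read between sub-populations and not as an amount of 1 gene over the other.

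The makeup of the PBX genes also differed between P10 and P11, in the shares of *Pbx2* and *Pbx4*, which were not tested. *Pbx4* is a further PBX gene, known mainly from the testis. Its level was 0.586, 0.715 and 0.673 CPM in P9 and 1.97, 1.78 and 1.57 CPM in P10. It was 8.73, 7.49 and 7.41 CPM in P11, and 7.44, 5.51 and 2.20 CPM in P12. Only P11 and P12 overlapped. The *Pbx4* values rest on 8 to 158 alignments per library. P11 exceeded P9 by 2.85 ± 0.34 on the log2 scale (SE; limma adjusted p = 4.9e-06) and P10 by 1.88 (limma adjusted p = 0.00084), and the difference from P12 was 0.73 (limma adjusted p = 0.36). Per kb of exon, *Pbx2* held 96.4% ± 1.31 (SD, n = 3) of the summed CPM of *Pbx2*, *Pbx3* and *Pbx4* in P9 and 79.9% ± 1.59, 64.2% ± 1.05 and 68.5% ± 6.29 in P10, P11 and P12. *Pbx3* held 2.76% in P9 and 15.3% to 17.96% on average in the others. The *Pbx4* share was 0.829% in P9 and 4.81% in P10. It was 20.02% in P11 and 13.6% in P12, where it ran from 5.45% to 19.9% between libraries.

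**Figure D3:**
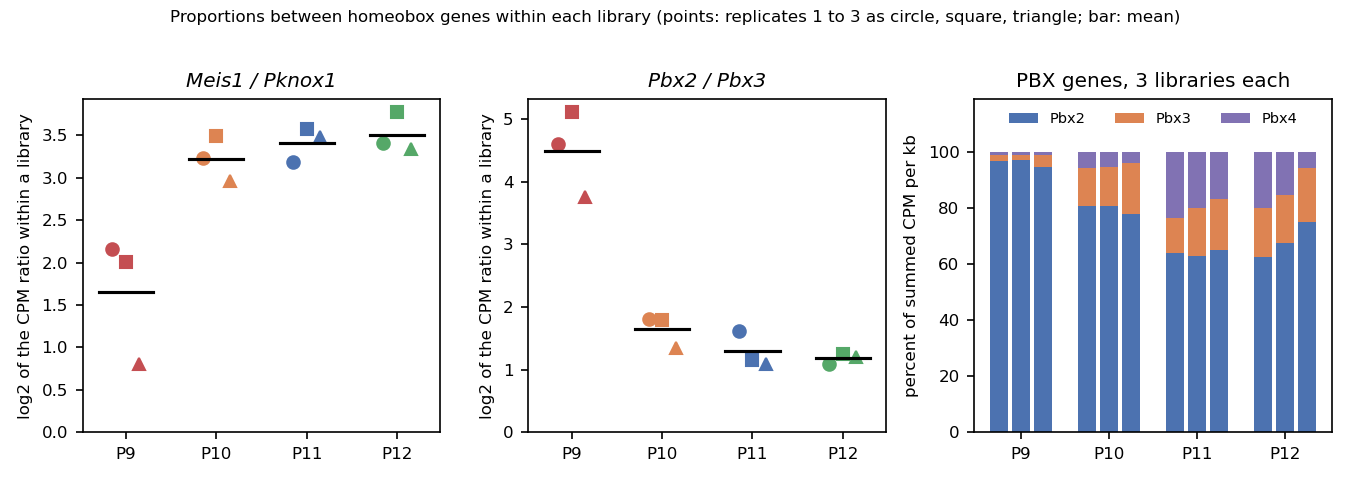
Log2 CPM ratios of *Meis1* to *Pknox1* and of *Pbx2* to *Pbx3* within each library (points, with means of 3 as bars), and the percent of PBX CPM per kb of exon in each gene (1 stacked bar per library, replicates 1 to 3 from left to right). P9 has the lowest *Meis1* to *Pknox1* ratio and a *Pbx2* share of 94.9% to 97.4%, and the *Pbx4* share has its highest mean in P11, at 16.6% to 23.5% between libraries.

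The other genes of both families were few. Of 39 HOX cluster genes 4 had a value, and 2 of these passed the filter. *Hoxb4*, which expands blood stem cells when overexpressed, was 2.18 to 2.98 CPM on average with no difference that passed (F test, limma adjusted p = 0.68), and *Hoxb3* was at most 1.54 CPM. Of 18 TALE genes 9 had a value and 8 were tested, and 4 of the 8 were higher and 2 lower in P11 than in P9, beside 46.8% and 11.2% of all genes. The others called there, beside *Meis1*, *Pbx2*, *Pbx3* and *Pbx4*, were *Tgif1* and *Pknox2*. *Pknox2* passed the filter through its P9 libraries alone, so its lower call was fixed in direction and carries no weight in this count. Against P10, *Pbx4* was the single TALE gene of the 8 called, higher in both P11 and P12. Of all genes, 12.8% were higher and 7.52% lower in P11 against P10, and 6.25% and 5.83% in P12 against P10. The P12 call, at 1.16, was lost without P12 replicate 1 (0.83, limma adjusted p = 0.10), and with a pseudocount of 2 CPM the difference was 0.82, under 2-fold. Without P12 replicate 3 it was 1.61.

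*Tgif1*, a repressor of TGF-β signalling, had the largest difference between P11 and P9 of the TALE genes above 0 in every library. It was 4.62, 2.59 and 3.70 CPM in P9, 28.2, 29.5 and 23.7 CPM in P10, 37.7, 37.4 and 27.9 CPM in P11, and 34.4, 34.8 and 25.8 CPM in P12. P9 stood apart from the others, which overlapped, and P11 exceeded P9 by 3.09 ± 0.21 on the log2 scale (SE; limma adjusted p = 4.0e-08). *Pknox2*, the close relative of *Pknox1*, had 4.84, 3.96 and 3.70 CPM in P9 and 0.392 CPM in P10 replicate 3, and was 0 in the other 8 libraries. With 3 alignments per library as a floor, its P9 mean was at least 24.7-fold higher than P11 and at least 18.7-fold higher than P12. *Tgif2* (1.11 to 2.39 CPM on average, F test limma adjusted p = 0.37) did not pass, and *Meis3* was at most 0.513 CPM. *Pbx2* and *Pknox2* were the TALE genes called lower in P11 than in P9. For *Pknox2*, tested only because of its P9 values, the call and the fold are a description.

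**Figure D4:**
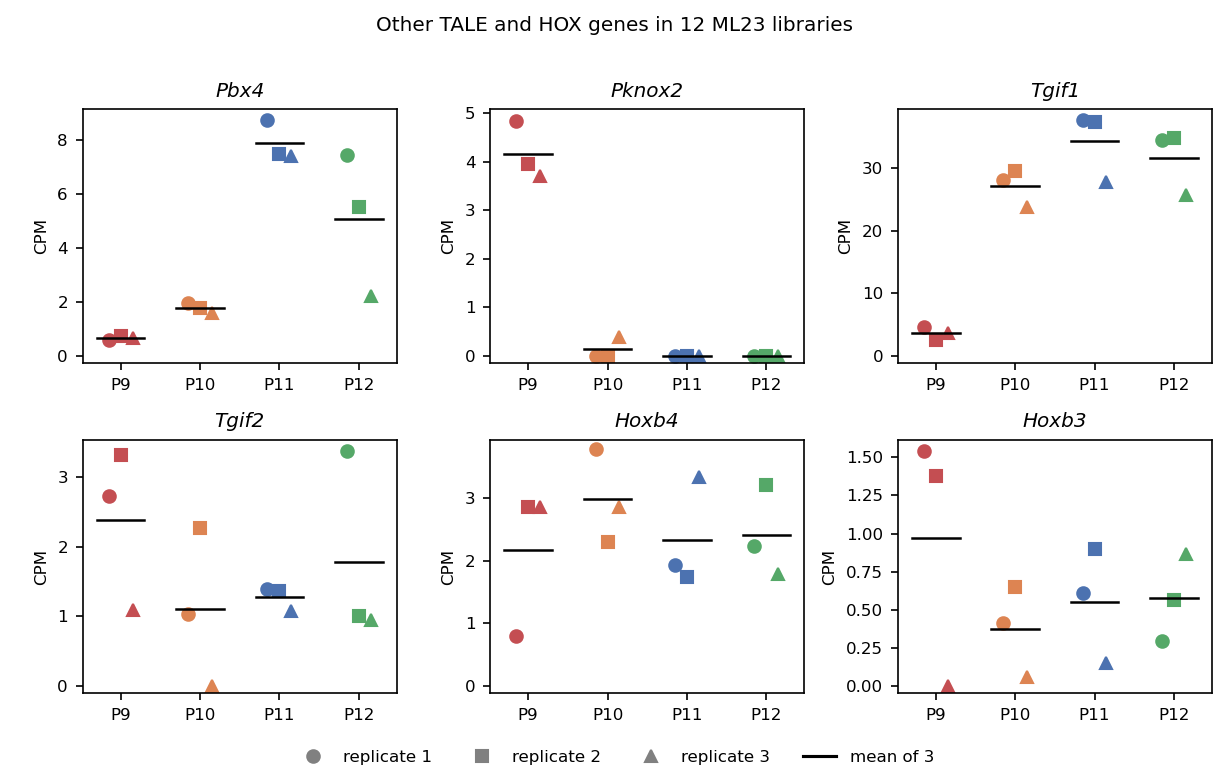
CPM on linear axes for 6 other TALE and HOX genes in 3 libraries each of P9 to P12 (marker shapes are replicates, bars are means of 3). *Pknox2* is above 1 CPM in P9 alone, *Pbx4* is highest in P11 at 7.41 to 8.73 CPM, and *Tgif2*, *Hoxb4* and *Hoxb3* overlap between sub-populations.

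Genes that keep HOX loci on or off were described from a list of 16, of which 14 were tested. The list joins the MLL complex and its partners, which activate HOX genes, with the Polycomb proteins that repress them. In P11 against P9, 7 were higher (*Bmi1*, *Dot1l*, *Ezh2*, *Men1*, *Mllt3*, *Psip1*, *Suz12*) and none lower, where 46.8% of all genes were higher and 11.2% lower. The list median was 1.03 against 0.90 for all genes. After rescaling 3 of the 14 were called, beside 4573 higher and 2234 lower of the 13450 genes tested. The 7 mix both kinds: *Dot1l*, *Men1*, *Mllt3* and *Psip1* belong with activation and *Bmi1*, *Ezh2* and *Suz12* with Polycomb. *Ezh2*, the Polycomb methyltransferase, was 30.5 ± 14.5 CPM (SD, n = 3) in P9, 50.1 ± 14.8 CPM in P10, 142 ± 13.1 CPM in P11 and 119.1 ± 18.8 CPM in P12. Its partner *Suz12* was 73.6 ± 20.2, 93.7 ± 10.6, 197 ± 12.1 and 169 ± 25.1 CPM in the same order. *Ezh2* and *Suz12* were also higher in P11 than in P10, by 1.53 (limma adjusted p = 0.00080) and 1.07 (limma adjusted p = 0.00058) on the log2 scale, with *Psip1* the third gene called. There 12.8% of all genes were higher and 7.52% lower, and the list median was 0.57 against 0.25 for all genes. *Dot1l*, the H3K79 methyltransferase, was 45.5, 51.3, 99.2 and 90.6 CPM on average, and the acetyltransferase gene *Kat7* was 68.7, 91.2, 133 and 124 CPM. None of the 14 was called between P11 and P12 in limma, where 0.0223% of all genes were. An unadjusted p under 0.05 was held by 1 of the 14 (*Mllt10*), beside 1860 of the 13450 genes tested.

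Factors that share or contest HOXA9 sites were described from a list of 12, all tested. In P11 against P9, 5 were higher (*Cebpa*, *Etv6*, *Myb*, *Runx1*, *Stat5a*) and *Spi1* was lower, beside 46.8% and 11.2% of all genes, with a list median of 0.41 against 0.90 for all genes. *Cebpa*, which works with HOXA9 at enhancers and drives myeloid commitment, was 23.7 ± 5.23 CPM (SD, n = 3) in P9, 148 to 166 CPM in P10, 162 ± 17.1 CPM in P11 and 129 ± 31.9 CPM in P12. P10 exceeded P9 in *Cebpa* by 2.75 ± 0.18 on the log2 scale (SE; limma adjusted p = 5.6e-08), and P11 and P10 differed by 0.01 (limma adjusted p = 0.96). *Myb*, needed by progenitors, was 114 ± 23.6, 241 ± 11.2, 650 ± 88.6 and 444 ± 61.3 CPM, and P11 exceeded P10 by 1.42 (limma adjusted p = 6.4e-05). *Runx1* was 60.3 ± 8.17, 100.1 ± 21.04, 168 ± 1.87 and 210 ± 35.6 CPM, and *Stat5a* was 21.8, 50.2, 60.8 and 56.8 CPM on average. In P11 against P10, *Erg*, *Gfi1* and *Myb* were higher and *Cebpb* lower, beside 12.8% and 7.52% of all genes. In P11 against P12 none of the 12 was called in limma, where 0.0223% of all genes were. An unadjusted p under 0.05 was held by 2 of the 12 (*Gfi1* and *Myb*), beside 1860 of the 13450 genes tested. With replicate number as a block in the fit, 1 of the 12 was called there, beside 119 of all genes.

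Genes reported as targets of HOX proteins or MEIS1 moved in both directions. Of 22 listed, 19 were tested, and all 19 passed the F test, which 83.9% of all genes passed. In P11 against P9, 9 were higher (*Bcl2*, *Ccl3*, *Cd34*, *Cdk6*, *Cdkn2a*, *Flt3*, *Myb*, *Myc*, *Sox4*) and 4 lower (*Cybb*, *Id2*, *Igf1*, *Itgb3*), beside 46.8% and 11.2% of all genes, with a list median of 0.56 against 0.90 for all genes. *Cd34*, a surface protein of progenitors, was 7.99, 6.49 and 5.22 CPM in P9, 91.9, 95.2 and 94.3 CPM in P10, 431, 383 and 392 CPM in P11, and 354, 406 and 305 CPM in P12. P9, P10 and the other pair formed 3 separate ranges, as they did for *Meis1*. P11 exceeded P9 in *Cd34* by 5.85 ± 0.15 on the log2 scale (SE; limma adjusted p = 4.1e-11) and P10 by 2.09 (limma adjusted p = 5.8e-06).

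*Bcl2*, which blocks apoptosis, was 4.35 ± 2.32, 40.5 ± 2.66, 137 ± 17.1 and 153 ± 56.5 CPM (SD, n = 3) from P9 to P12. *Myc*, a driver of growth and division, was 7.18 ± 1.25, 43.8 ± 7.84, 160 ± 16.8 and 92.7 ± 27.9 CPM. Both were higher in P11 than in P10, by 1.74 (limma adjusted p = 0.0015) and 1.87 (limma adjusted p = 6.1e-05) on the log2 scale. In P11 against P10, 7 targets were higher (*Bcl2*, *Cd34*, *Cdk6*, *Erg*, *Myb*, *Myc*, *Sox4*) and 4 lower (*Ccl4*, *Cybb*, *Id2*, *Igf1*), beside 12.8% and 7.52% of all genes, with a list median of 0.13 against 0.25 for all genes. The lower genes include *Cybb*, the phagocyte oxidase subunit, which was 529 to 556 CPM in P11 and 1900.3 to 1988 CPM in P10. In P11 against P12 none of the 19 was called in limma, where 0.0223% of all genes were. An unadjusted p under 0.05 was held by 7 of the 19, beside 1860 of the 13450 genes tested.

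**Figure D5:**
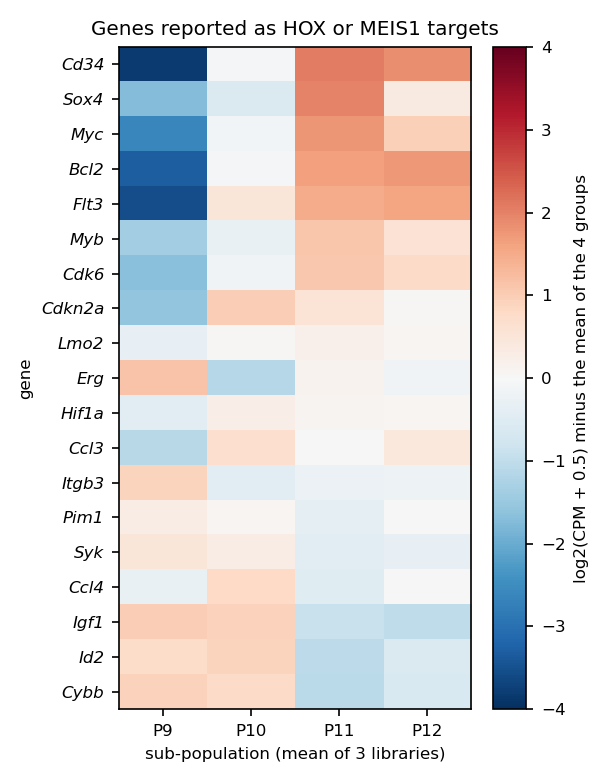
Mean log2(CPM + 0.5) of 19 reported targets in each sub-population (3 libraries) minus the mean of the 4 sub-populations, in order of the P11 value. *Cd34* spans from -3.82 in P9 to 2.03 in P11, and *Cybb*, *Id2* and *Igf1* have their higher values in P9 and P10.

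The genes whose pattern lay closest to each member were found over the 12 libraries among protein-coding genes with a mean of at least 10 CPM, by Pearson's r of log2 values. The points share 4 sub-population means, so r is a description. *Meis1* was closest to *Smarcd1* (r = 0.985), *Golgb1* (0.980) and *Urb1* (0.979). *Pbx2* was closest to *Ncf1* (0.994), *Rcsd1* (0.994) and *Arrb2* (0.994), of which *Ncf1*, a phagocyte oxidase subunit, was 2122 CPM in P9 and 401 to 520 CPM on average in the others. *Pbx3* was closest to *Dnajc19* (0.969), *Chd3* (0.967) and *Chpt1* (0.966), *Pknox1* to *Bcr* (0.949), *Rhbdd2* (0.927) and *Egln3* (0.908), and *Hoxa9* to *Nsun3* (0.945), *Zfp523* (0.936) and *Tap2* (0.932).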

How the data were processed

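By the labels and the paper's methods, the authors amplified cDNA of 100 sorted cells with 14 cycles, aligned single reads of 61 bases to mm10 (Ensembl annotation) with STAR 2.5.3a and assigned them with the Partek E/M algorithm. The labels name a SMART-Seq poly-A kit and the paper a directional kit, so whether strand was used is not settled. The deposited values are CPM, to which 0.0001 had been added by the authors. The offset was subtracted here. Total alignments per library were read from the spacing of low values, of which 76.4% to 82.6% were whole within 0.1 alignments, too few for a count test.

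The 13450 genes that reached 1 CPM in 3 or more libraries were tested with limma 3.58.1 in R 4.3.3 on log2(CPM + 0.5), with an intensity trend, 1 mean per sub-population and Benjamini-Hochberg adjustment over all of them, two-sided. Annotation and sequences came from GENCODE M21. Some items are not reported here. Named genes are the members, every HOX or TALE gene with a value, and up to 4 genes per other list with the smallest F test p, beside the genes called in a list. Members and lists were chosen with earlier results of these data known. Alternatives were pseudocounts of 0.1 and 2 CPM, a 10 CPM filter or none, a median-ratio rescaling (from genes that reached 10 CPM throughout), a replicate block, each library left out in turn, and replicate 3 of every sub-population left out, whose descriptions use letters where the others use digits. Python 3.11.15, pandas 2.3.3, numpy 2.4.6, scipy 1.17.1 and matplotlib 3.10.9 were used for tables and plots.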

Additional observations from a re-analysis of the deposited data

How the results depend on the processing

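With a filter of 10 CPM *Hoxa9* was no longer tested, and the number of members called fell to 0 in P11 against P10, 0 in P12 against P10 and 1 in P11 against the mean of the others, which was also 1 after rescaling. With libraries left out, the last was 1 to 2 and P12 against P10 was 0 to 1. Directions turned where the difference was small. *Hoxa9* in P10 against P9 was 0.021 with a pseudocount of 0.1 CPM and -0.54 to 0.23 with libraries left out. *Pknox1* was -0.14 in P11 against P9 and -0.32 in P12 against P9 after rescaling (limma adjusted p = 0.32 and 0.031), and *Pbx3* in P11 against P10 was -0.010 after rescaling and -0.065 to 0.35 with libraries left out. In P11 against P12, libraries left out gave -0.016 to 0.25 for *Meis1*, -0.37 to 0.84 for *Hoxa9*, -0.12 to 0.090 for *Pbx2*, -0.32 to 0.077 for *Pbx3* and -0.027 to 0.25 for *Tgif1*. The cause was not tested.

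As a ratio, counts over all genes varied most in P11 against P12, from 1 to 119 with 3 in the fit reported, and with a pseudocount of 2 CPM they were 1067 in place of 1624 in P12 against P10 and 2213 in place of 3370 in P11 against the mean of the others. Same-numbered libraries of different sub-populations deviated together at r over 0.1 in 12 of 18 pairs (median 0.138), and differently numbered ones in 9 of 36 (median -0.117). Not every same-numbered pair passed 0.1, which does not settle whether the numbers pair libraries. Same-numbered libraries were the more alike, and the fit reported, which does not pair them, leaves that likeness in its spread. With the replicate block the members called stayed at 4, 1, 0, 3, 4, 1, 2 and 5 in the 8 comparisons, and P11 against P12 called 119 genes, 1 of them among the partner and competitor factors. After rescaling, regulators of HOX genes called in P11 against P9 went from 7 to 3, and in P12 against P9 from 6 to 2. Over all genes, higher calls went from 6288 to 4573 and from 5808 to 4228, and lower calls from 1504 to 2234 and from 1490 to 2110. *Hoxa9* rests on 10 to 198 alignments per library.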
